A study of Mus musculus with 28 samples.

Results

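The 7 mature miRNAs described here are known for their abundance in blood cells of the leukocyte lineages: mmu-miR-142a-3p and mmu-miR-142a-5p, mmu-miR-223-3p, mmu-miR-150-5p, mmu-miR-155-5p, and mmu-miR-342-3p and mmu-miR-342-5p, written below without the species prefix. They were chosen by name among the 1485 mature miRNAs listed over 28 small RNA libraries of the mouse left ventricle, and each was listed under 1 hairpin. The mice were of the outbred stock Hsd:ICR(CD-1) and were operated on postnatal day 1 (P1) or 7 (P7), with either a sham operation or a myocardial infarction (MI) from a tied left anterior descending artery. Ventricular tissue of the remote zone, which lies away from the infarct, was taken 3 days after the operation (4 libraries in each of the groups sham P1, MI P1, sham P7 and MI P7, at ages of 4 and 10 days) or 21 days after it (3 libraries in each of the same groups, at 22 and 28 days). All animals carried an operation, so the sham groups are operated controls, and the samples are whole tissue. The labels do not state that each library came from its own mouse, so the p-values cover only how far these libraries differ, which may be in part technical.

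A miRNA is cut from a hairpin precursor whose 2 arms can each give a mature strand, and the mature strand lowers the output of messenger RNAs that pair with its seed, the bases near its 5′ end. The miR-142 hairpin is used across blood cell lineages, and miR-223 is best known from neutrophils and other myeloid cells. MiR-150 is best known from mature lymphocytes, miR-155 from activated immune cells, and miR-342 is made from an intron of the gene Evl. Infarction is known to draw myeloid cells into the heart in the first days, and a level in whole tissue cannot tell a change in the number of such cells from a change in RNA per cell.

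RefSeq (GRCm38.p6) held the sequence of 6 of the 7 miRNAs. They are shown because the comparisons below set arms of 1 hairpin and products of different loci against each other, and the seed, bases 2 to 8, is in capitals:
miR-142a-3p: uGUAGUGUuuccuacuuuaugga
miR-142a-5p: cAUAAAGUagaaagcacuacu
miR-223-3p: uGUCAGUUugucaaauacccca
miR-155-5p: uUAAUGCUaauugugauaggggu
miR-342-3p: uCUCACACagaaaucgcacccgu
miR-342-5p: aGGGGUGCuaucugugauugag
These 6 had 6 distinct seeds, and no other mature miRNA among the 1679 names of the RefSeq table shared any of them.

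Both arms of the miR-142 and miR-342 hairpins were counted, and in the hairpins below the 2 mature arms are in capitals, the 5p arm first:
Mir142: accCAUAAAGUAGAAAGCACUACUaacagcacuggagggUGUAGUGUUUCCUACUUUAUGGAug
Mir342: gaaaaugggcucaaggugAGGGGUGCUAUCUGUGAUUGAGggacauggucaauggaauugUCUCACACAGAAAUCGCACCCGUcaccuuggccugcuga
Mir142 lies at chr11:87756864-87756927 on the plus strand, in an intron of the long noncoding RNA gene Mir142hg, and a second annotated hairpin, Mir142b, overlaps it on the minus strand. Mir342 lies at chr12:108658620-108658718 on the plus strand, in an intron of the protein-coding gene Evl. Mir155 lies at chr16:84714140-84714204 on the plus strand, in an exon of the long noncoding RNA gene Mir155hg. Mir223 lies at chrX:96242817-96242926 on the plus strand, in an exon of F630028O10Rik, which GENCODE M21 types as an antisense RNA.

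The 3-day and 21-day libraries were made with different kits, so their levels are not set against each other. Levels are counts per 1000000 counts (CPM) after TMM scaling within a follow-up, and a change counts as passing the test at an edgeR adjusted p under 0.05 over all miRNAs tested, which were 446 at 3 days and 598 at 21 days. The deposited counts of a 21-day library came to between 18.2 and 26.9 M (M, 1000000). At 3 days the deepest group was MI P1, with 5.61 to 13.0 M, and the shallowest was MI P7, with 1.29 to 1.95 M.

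The sham P1 group of 3 days fell into 2 pairs that carry different codes in their titles, and this bears on every result that uses it. Replicates 1 and 2 (code 1078) had 680 and 914 CPM of miR-223-3p, and replicates 3 and 4 (code 1103) had 18.3 and 33.9 CPM. MiR-142a-5p was at 263 and 290 CPM in the first pair against 7.71 and 3.76 CPM in the second, the latter from 8 and 7 counts. MiR-150-5p was lower in the first pair, at 600 and 742 CPM, than in the second, at 1770 and 2119 CPM. Other marker miRNAs differed as well: the summed endothelial miR-126a arms were at 120889 to 158425 CPM in the first pair and at 3913 to 6197 CPM in the second, and the 4 erythroid miRNAs summed to 1665 to 1965 CPM and 8214 to 11132 CPM. The first pair was also deeper, at 6.25 and 9.26 M deposited counts against 1.56 and 2.65 M. No title code occurred in more than 1 group, so every comparison of groups was also a comparison between codes. At 21 days each group had a single code, and so did sham P7 of 3 days (1075), so code and group cannot be told apart there. What separates the pairs was not tested.

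**Figure D1:**
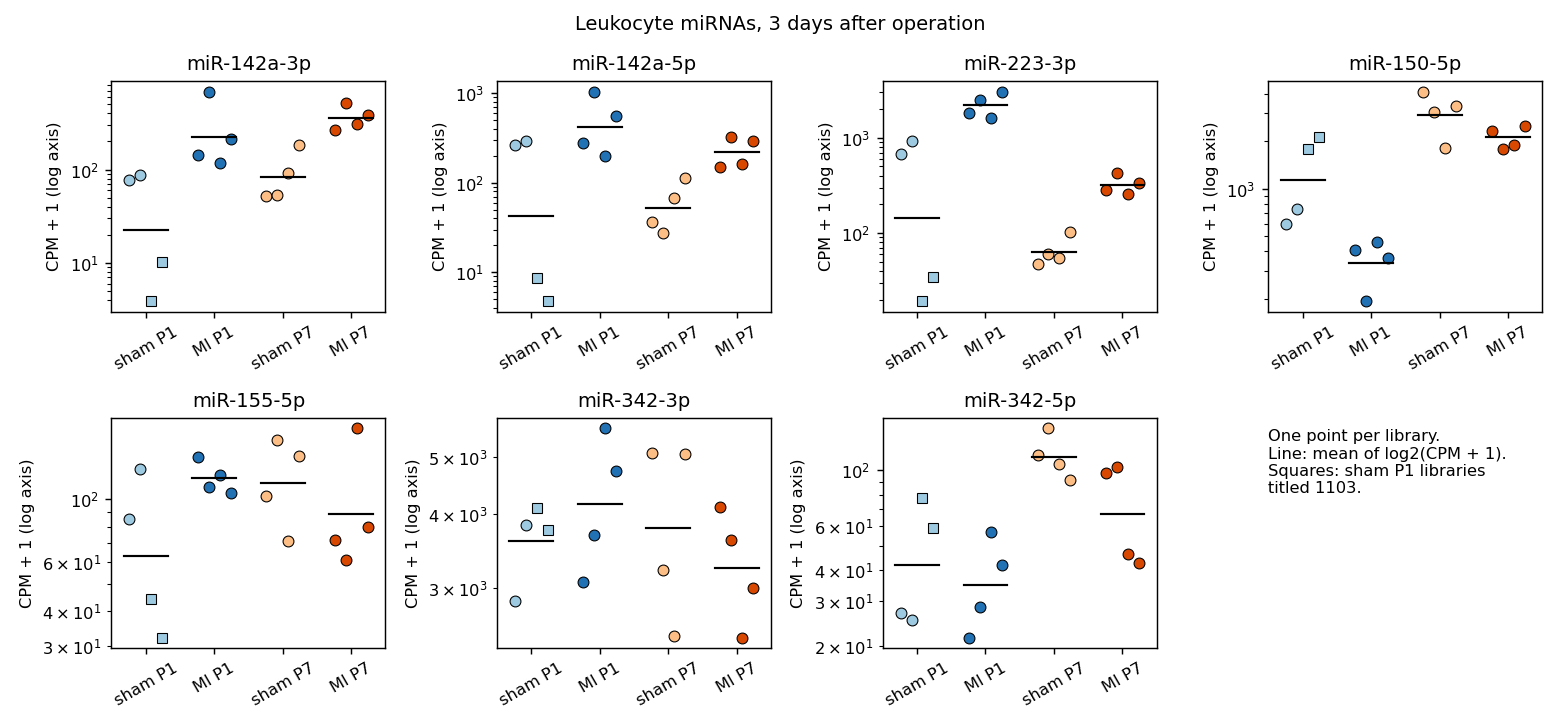
Level of each miRNA 3 days after operation, as CPM + 1 on a log axis that differs between panels, with 1 point per library, a line at the mean of log2(CPM + 1), and squares for the sham P1 libraries titled 1103. MiR-223-3p lay between 1616 and 3057 CPM in MI P1 and between 254 and 426 CPM in MI P7, above every sham library of the same operation day.

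At 3 days after MI at P1, the myeloid miR-223-3p was higher and the lymphoid miR-150-5p lower than in sham hearts in every library. MiR-223-3p was at 1838, 2508, 1616 and 3057 CPM in the 4 MI P1 libraries and at 680, 914, 18.3 and 33.9 CPM in sham P1. All MI libraries lay above all sham libraries, and the change of 2.45 ± 0.84 on the log2 scale (SE) just missed the threshold at an edgeR adjusted p of 0.0503. MiR-150-5p was at 406, 193, 456 and 360 CPM in MI P1 and at 600, 742, 1770 and 2119 CPM in sham P1. It fell by 1.89 ± 0.43 on the log2 scale (edgeR adjusted p = 0.023), with no overlap between the groups.

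MiR-142a-3p, found across blood cell lineages, rose with MI at P1. It ranged from 117 to 686 CPM in MI P1, with a median of 178 CPM, and was at 76.0, 85.6, 2.89 and 9.14 CPM in sham P1, the lowest from 3 counts. The MI libraries again lay above all sham libraries, and the log2 fold change was 2.71 ± 0.83 (edgeR adjusted p = 0.0345). Its sister arm miR-142a-5p was at 281, 1048, 198 and 559 CPM against 263, 290, 7.71 and 3.76 CPM, so the groups overlapped, and its log2 fold change of 1.88 ± 0.97 did not pass (edgeR adjusted p = 0.171).

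Thus 2 of the 7 miRNAs passed at P1, 1 in each direction, where 18.4% of all tested miRNAs passed, 1.35% higher and 17.0% lower. Groups that did not overlap were seen for 3 of the 7, against 13.0% of all tested. Neither call held without the sham libraries titled 1103: miR-142a-3p was then at 1.82 (edgeR adjusted p = 0.302), miR-150-5p at -1.0 (0.274) and the uncalled miR-223-3p at 1.42 (0.0695) on the log2 scale. Without those titled 1078 the log2 fold changes were 5.30 for miR-142a-3p (2.43e-05), -2.67 for miR-150-5p (1.57e-06) and 6.18 for miR-223-3p (3.6e-08), so for these 3 the direction was the same with either pair and the size differed. MiR-142a-5p, at 6.38 (2.84e-06), then passed too. In a limma-voom fit with title code as a random block, which estimated a correlation of 0.642 within a code, neither call held (limma adjusted p = 0.387 for both) and miR-223-3p did not pass (0.236). Both calls were also lost in 5 of 16 fits that left out 1 library, namely replicate 3 or 4 of sham P1 or replicate 1, 2 or 4 of MI P1 (edgeR adjusted p up to 0.143 for miR-142a-3p and 0.106 for miR-150-5p).

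The remaining members differed less at P1. MiR-155-5p had 104 to 140 CPM in MI P1 and 31.2 to 127 CPM in sham P1, a log2 fold change of 0.73 that did not pass (edgeR adjusted p = 0.27). MiR-342-3p, which had the most counts of the 7 miRNAs in every 3-day library, had 3068 to 5600 CPM in MI P1 and 2849 to 4094 CPM in sham P1 (log2 fold change 0.23, edgeR adjusted p = 0.652). MiR-342-5p had 20.5 to 55.7 CPM against 24.4 to 76.2 CPM (log2 fold change -0.34, edgeR adjusted p = 0.629). Without the sham libraries titled 1078, miR-155-5p passed at 1.49 (edgeR adjusted p = 0.00882) and miR-342-5p at -1.13 (0.0179).

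At 3 days after MI at P7, miR-223-3p and both miR-142a arms were higher than in sham hearts in every library. MiR-223-3p was at 280, 426, 254 and 334 CPM in MI P7 and at 45.8, 59.2, 53.8 and 101 CPM in sham P7. MiR-142a-3p was at 262, 518, 309 and 388 CPM against 50.9, 52.9, 91.1 and 182 CPM. MiR-142a-5p was at 148, 327, 163 and 294 CPM against 35.6, 26.4, 66.9 and 113 CPM. For each of the 3, the lowest MI library lay above the highest sham library.

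These differences of 2.31 ± 0.84 for miR-223-3p, 1.97 ± 0.81 for miR-142a-3p and 1.94 ± 0.98 for miR-142a-5p on the log2 scale did not pass in the fit of all 4 groups (edgeR adjusted p = 0.12, 0.172 and 0.292). That fit shares 1 estimate of the spread, to which the sham P1 pairs contribute. With only the sham P7 and MI P7 libraries in the fit, the log2 fold changes were 2.27, 1.95 and 1.91 and all 3 passed (edgeR adjusted p = 1.88e-04, 0.00269 and 0.00554). They also passed in fits without either pair of sham P1 libraries, with adjusted p-values of 1.07e-05 to 0.013. None of the 3 passed in the limma-voom fit with title code as a random block (limma adjusted p = 0.996 for each). In the fit of all groups 0 of the 7 miRNAs passed, against 5.61% of all tested, and non-overlapping groups were seen for 3 of the 7, all higher in MI, against 20.6% of all tested.

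MiR-150-5p had overlapping levels at P7, with 2332, 1786, 1892 and 2509 CPM in MI and 4125, 3055, 1803 and 3323 CPM in sham hearts. Its log2 fold change was -0.53 (edgeR adjusted p = 0.592). MiR-155-5p was at 59.9 to 178 CPM in MI P7 and 70.2 to 161 CPM in sham P7, and miR-342-3p at 2466 to 4119 CPM and 2480 to 5086 CPM. Their log2 fold changes were -0.29 (edgeR adjusted p = 0.841) and -0.26, and with total count scaling they were 0.19 and 0.22. MiR-342-5p was at 41.8 to 102 CPM in MI P7 and 90.8 to 146 CPM in sham P7, a log2 fold change of -0.68 that did not pass.

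**Figure D2:**
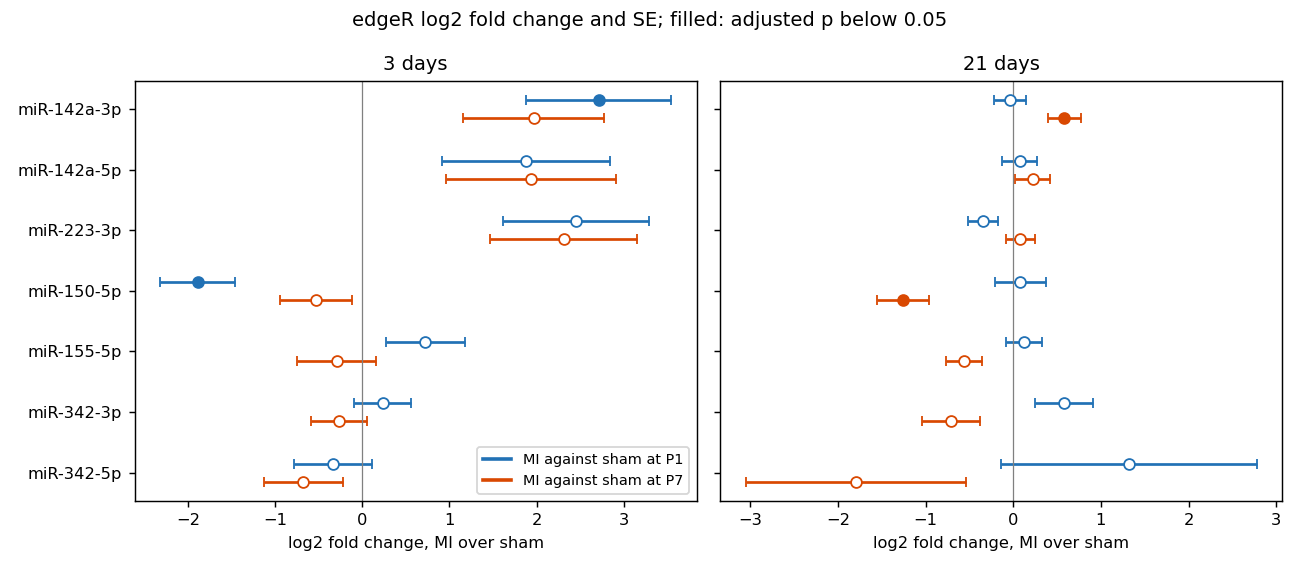
edgeR log2 fold change of MI over sham for each miRNA, with its SE as a bar, at 3 days (left) and 21 days (right), for operation at P1 (blue) and P7 (orange); filled points passed at an adjusted p under 0.05. At 3 days miR-142a-3p, miR-142a-5p and miR-223-3p lay between 1.88 and 2.71 in both operations, and at 21 days miR-150-5p was at -1.26 after MI at P7.

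The MI effect was not shown to differ between the operation days at 3 days: 0 of 446 miRNAs (0.0%) passed in edgeR's test of the difference, the 7 members included, where 71 had an unadjusted p under 0.05 and DESeq2 called 6. This rested on the sham P1 libraries titled 1078: without them the differences (P7 minus P1) were -3.37 for miR-142a-3p, -4.50 for miR-142a-5p, -3.92 for miR-223-3p, 2.09 for miR-150-5p and -1.81 for miR-155-5p on the log2 scale, and all 5 passed (edgeR adjusted p = 0.00431, 4.57e-04, 1.34e-05, 7.3e-04 and 0.0135). Without the libraries titled 1103 none of the 7 passed, and miR-223-3p was at 0.85. The level of miR-223-3p was 2255 ± 655 CPM (SD, n = 4) in MI P1 and 324 ± 75.9 CPM in MI P7, and these groups did not overlap, a difference that was not tested. In the sham groups it was 412 ± 455 CPM at P1 and 65.0 ± 24.8 CPM at P7, and the groups overlapped because the P1 libraries titled 1103 lay below all of sham P7. The order of its group means was thus MI P1, sham P1, MI P7 and sham P7, where sham P1 and MI P7 did not differ beyond their spread. For miR-150-5p the order was sham P7 (3076 ± 963 CPM), MI P7 (2130 ± 346 CPM), sham P1 (1308 ± 751 CPM) and MI P1 (354 ± 114 CPM), with overlap between each neighbouring pair except sham P1 and MI P1.

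Between the sham groups of 3 days, miR-223-3p fell by 2.66 ± 0.85 on the log2 scale from P1 to P7 (edgeR adjusted p = 0.0389), miR-150-5p rose by 1.23 ± 0.42 (0.0465) and miR-342-5p rose by 1.32 ± 0.45 (0.0472). These were 3 of the 7 miRNAs, where 22.0% of all tested passed, 3.81% higher and 18.2% lower, and the median log2 fold change of all tested was -0.53. MiR-342-5p was the 1 of the 7 without overlap, against 11.0% of all tested. The others did not pass: miR-142a-3p was at 1.10 ± 0.80, miR-142a-5p at -1.22 ± 0.96, miR-155-5p at 0.73 and miR-342-3p at 0.12. Each of the 3 calls was kept in 3 of 16 fits that left out 1 library. None held with only the sham groups in the fit (edgeR adjusted p = 0.33, 0.337 and 0.33). The same was true in limma-voom with title code as a random block (limma adjusted p = 0.769, 0.649 and 0.649). Without the sham P1 libraries titled 1078, miR-223-3p turned to 1.29 higher at P7 (edgeR adjusted p = 0.0313), and miR-150-5p and miR-342-5p no longer passed at 0.68 and 0.80.

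The ratio of miR-223-3p to miR-150-5p within a library does not depend on scaling and sets the myeloid against the lymphoid miRNA. At 3 days the log2 ratio was 2.18, 3.70, 1.83 and 3.09 in MI P1, and 0.18, 0.30, -6.56 and -5.96 in sham P1. At P7 it was -3.05, -2.07, -2.89 and -2.91 in MI and -6.48, -5.68, -5.05 and -5.03 in sham hearts. MI libraries lay above sham libraries of the same day without overlap in both cases, by 5.71 at P1 and 2.83 at P7 (two-sided exact permutation p = 0.0286 each, the smallest that 4 against 4 can give; 0.171 after Benjamini-Hochberg adjustment over the 12 ratio tests of a follow-up). The difference at P1 was 2.46 without the sham libraries titled 1103 and 8.95 without those titled 1078. MiR-223-3p outnumbered miR-150-5p in all MI P1 libraries and in the sham P1 pair titled 1078, and miR-150-5p outnumbered miR-223-3p in all P7 libraries. The MI effects on the ratio differed by -2.88 between the days (exact permutation p = 0.371), and by 0.37 without the sham libraries titled 1103. That p, from MI and sham labels permuted within each operation day, tests for no MI effect at either day and not for equal effects.

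**Figure D3:**
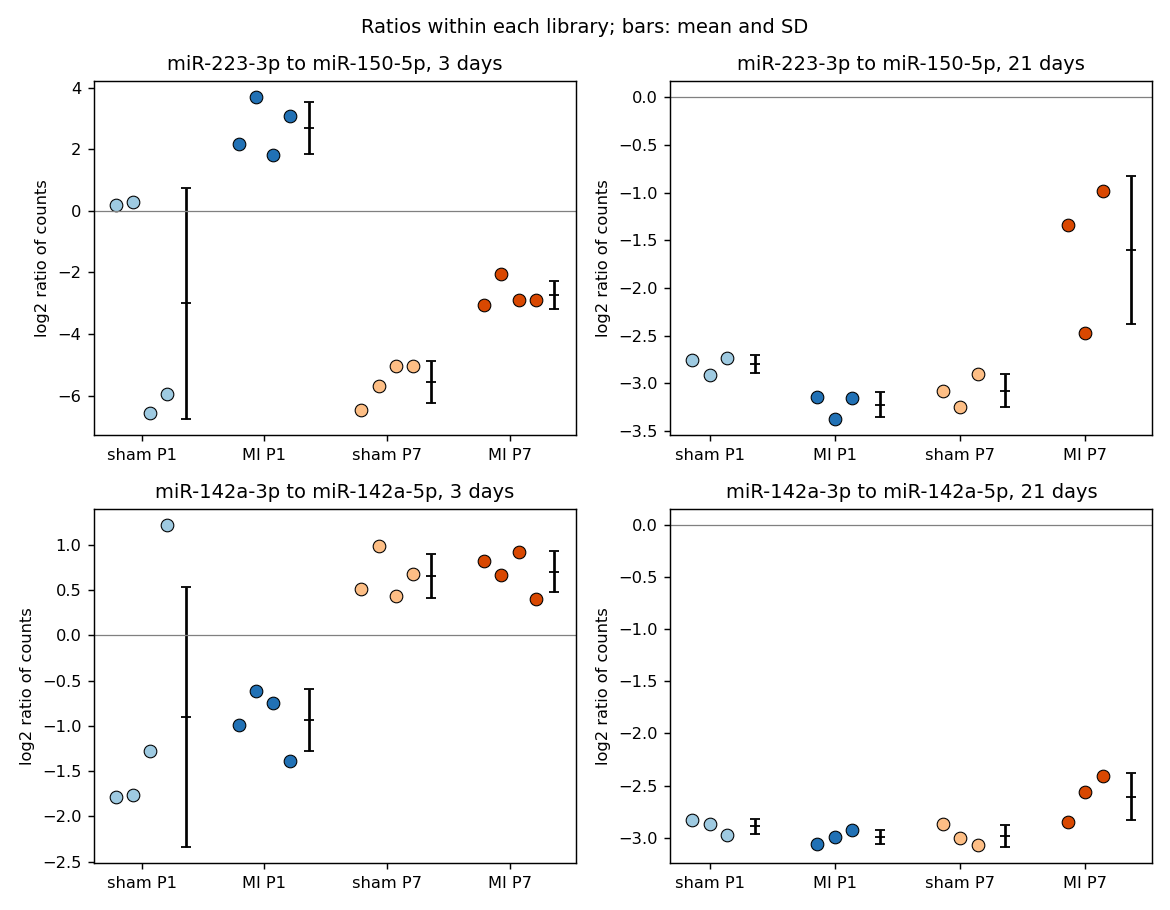
Log2 ratio of counts within each library for miR-223-3p to miR-150-5p (top) and miR-142a-3p to miR-142a-5p (bottom) at 3 days (left) and 21 days (right), with 1 point per library and bars at the mean and SD of a group; each panel has its own axis. At 21 days the MI P7 libraries lay at -2.47 to -0.99 for miR-223-3p to miR-150-5p, above all other libraries of that follow-up.

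At 21 days after MI at P7, the lymphoid miR-150-5p was at 425, 744 and 237 CPM, against 1012, 1306 and 1055 CPM in sham P7. It fell by 1.26 ± 0.30 on the log2 scale (edgeR adjusted p = 0.0124), the groups did not overlap, and the call was kept in all 12 fits that left out 1 library (adjusted p up to 0.0497). With only the sham P7 and MI P7 libraries in the fit it did not pass (edgeR adjusted p = 0.0682). MiR-142a-3p rose by 0.58 ± 0.19 (edgeR adjusted p = 0.0392), from 232, 214 and 214 CPM in sham P7 to 364, 257 and 368 CPM in MI P7, but the call was kept in 5 of those 12 fits. It was lost without any 1 sham P7 library, MI P7 replicate 1 or 3, or MI P1 replicate 2 or 3 (adjusted p up to 0.115).

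MiR-223-3p, in contrast, was at 168, 134 and 119 CPM in MI P7 and at 119, 138 and 141 CPM in sham P7 at 21 days, with a log2 fold change of 0.08 ± 0.17 (edgeR adjusted p = 0.744). MiR-142a-5p was at 2621, 1519 and 1952 CPM in MI P7 and 1698, 1720 and 1805 CPM in sham P7 and did not pass (edgeR adjusted p = 0.43). MiR-155-5p was at 37.2, 62.4 and 58.4 CPM against 90.9, 66.1 and 76.2 CPM. MiR-342-3p was at 127, 82.4 and 84.7 CPM against 198, 137 and 145 CPM. Neither of these passed, with log2 fold changes of -0.56 and -0.71 (edgeR adjusted p = 0.0636 and 0.138), although the groups did not overlap for either. MiR-342-5p was at 2.23, 1.81 and 0 CPM in MI P7 and at 4.29 to 4.89 CPM in sham P7, and did not pass.

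In this comparison 2 of the 7 miRNAs passed, 1 in each direction, against 22.1% of all tested, 13.2% higher and 8.86% lower, and 5 of the 7 had groups that did not overlap, against 35.3% of all tested. Some markers of other cell types moved in the same comparison. Of 5 cardiomyocyte miRNAs 1 passed, miR-133a-3p, which fell by 1.01 (edgeR adjusted p = 0.00844). The others were at -0.43 (miR-208a-3p), -0.32 (miR-499-5p), -0.21 (miR-1a-3p) and 0.10 (miR-208b-3p). Of the 2 endothelial miR-126a arms 1 passed, miR-126a-3p, which fell by 0.78 (edgeR adjusted p = 0.0195), while miR-126a-5p was at -0.39. Of 4 miRNAs counted with smooth muscle and fibroblasts 2 passed, miR-199a-5p and miR-214-3p, which rose by 2.10 and 1.84 (0.00312 each), while miR-143-3p was at 0.11 and miR-145a-5p at -0.04. Summed over the list, cardiomyocyte miRNAs were at 55970 to 92571 CPM in MI P7 and 133851 to 157386 CPM in sham P7. The part of these shifts in the members' values was not tested.

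After MI at P1, 0 of the 7 miRNAs passed at 21 days, where 0.502% of all tested passed. MiR-150-5p was at 1001, 1020 and 918 CPM in MI P1 and 932, 956 and 888 CPM in sham P1, a log2 fold change of 0.08. MiR-223-3p was at 113, 98.3 and 103 CPM in MI P1 and 138, 127 and 133 CPM in sham P1. All MI libraries lay below all sham libraries, but the log2 fold change of -0.34 ± 0.17 did not pass (edgeR adjusted p = 0.693). MiR-155-5p, at 56.1 to 56.6 CPM in MI P1 and 49.3 to 53.2 CPM in sham P1, also did not overlap, which made 2 of the 7 against 17.4% of all tested. The log2 fold changes of miR-142a-3p and miR-142a-5p were -0.04 and 0.07. Those of miR-342-3p and miR-342-5p were 0.58 and 1.32, and miR-342-5p was listed at 0 in libraries of both groups.

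The drop of miR-150-5p at P7 was not shown to differ from its change at P1: the difference was -1.35 ± 0.42 on the log2 scale (edgeR adjusted p = 0.0585), where 9.87% of all tested miRNAs passed. It passed with DESeq2 (adjusted p = 0.0269), limma-voom (0.0496) and no filter (0.00107), and did not with lane as a term (0.126), total count scaling (0.194) or the replicate block (0.0906). The log2 ratio of miR-223-3p to miR-150-5p was -1.34, -2.47 and -0.99 in MI P7 and -3.08, -3.25 and -2.90 in sham P7, and -3.15, -3.38 and -3.15 in MI P1 and -2.75, -2.91 and -2.74 in sham P1. It was thus 1.48 higher with MI at P7 and 0.42 lower with MI at P1, each without overlap (exact permutation p = 0.1 each, the smallest that 3 against 3 can give). The difference of these effects was 1.90 (exact permutation p = 0.005, the smallest that its 400 arrangements can give, adjusted p = 0.06). This p comes from MI and sham labels permuted within each operation day. It tests for no MI effect at either day, so it does not show that the 2 effects differ.

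Between the sham groups of 21 days, 0 of the 7 miRNAs passed, as did 0 of all 598 tested in edgeR (0.0%), where 72 had an unadjusted p under 0.05 and DESeq2 called 14. MiR-342-3p had the largest difference among those detected in every library, with 45.2, 86.2 and 45.3 CPM in sham P1 and 198, 137 and 145 CPM in sham P7 (log2 fold change 1.44 ± 0.34, edgeR adjusted p = 0.0957). It passed with only these groups in the fit (0.0368). MiR-155-5p was at 52.2, 53.2 and 49.3 CPM in sham P1 and 90.9, 66.1 and 76.2 CPM in sham P7, without overlap and without passing (edgeR adjusted p = 0.199). With miR-150-5p and miR-342-5p, these made 4 of the 7 without overlap, all higher at P7, against 26.9% of all tested.

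**Figure D4:**
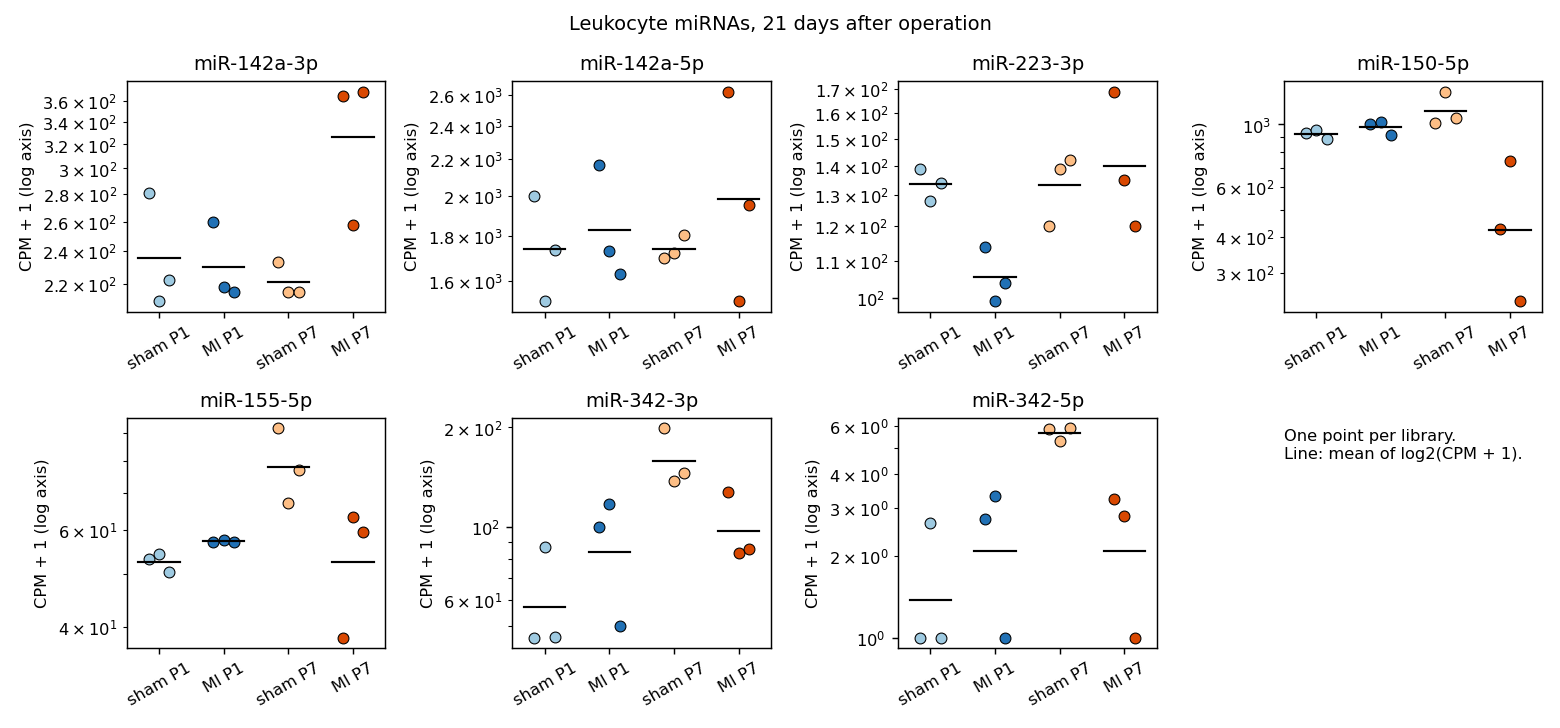
Level of each miRNA 21 days after operation, as CPM + 1 on a log axis that differs between panels, with 1 point per library and a line at the mean of log2(CPM + 1). MiR-150-5p lay at 237 to 744 CPM in MI P7, below the 888 to 1306 CPM of the other groups, and miR-342-5p was listed at 0 in 4 libraries.

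The arms of the miR-142 hairpin shown above were compared within each library. At 3 days miR-142a-3p counts exceeded miR-142a-5p counts in all 8 P7 libraries, with a log2 ratio of 0.65 ± 0.24 in sham and 0.70 ± 0.23 in MI (SD, n = 4). In the P1 libraries the 5p arm exceeded the 3p arm, with -0.93 ± 0.34 in MI P1, except in sham P1 replicate 4, at 1.22 from 17 and 7 counts. The sham groups differed by 1.55 (exact permutation p = 0.143, adjusted p = 0.429), and the MI groups differed from sham by -0.03 at P1 and 0.05 at P7. At 21 days the 5p arm exceeded the 3p arm in all 12 libraries, and MI P7 differed from sham P7 by 0.38 (exact permutation p = 0.1).

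The arms of miR-342 were unequal in every library. At 3 days the log2 ratio of miR-342-3p to miR-342-5p was 6.45 in sham P1, 6.95 in MI P1, 5.07 in sham P7 and 5.61 in MI P7 as group means. No comparison of this ratio passed, and the lowest exact permutation p was 0.0571, between the sham groups. At 21 days miR-342-5p was listed at 0 in 4 libraries and had at least 28 counts in each of the others, so its ratio there is not read.

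Which other miRNAs had the most similar profile was measured as the root mean square difference, over libraries, of log2(CPM + 1) centred on each miRNA's own mean. Over the 16 libraries of 3 days, miR-223-3p was nearest to miR-21a-5p, at 0.57, and miR-146b-5p, at 0.62, which are both known from inflammation, and to miR-7a-5p, at 0.73, where the median of 341 miRNAs was 2.29. MiR-150-5p was nearest to miR-1198-5p, miR-139-5p and miR-486a-3p, at 0.48 to 0.50 with a median of 1.45. The last is the other arm of miR-486a-5p, which is in the erythroid list below. MiR-142a-3p was nearest to miR-144-3p, miR-29b-3p and miR-144-5p, at 1.03 to 1.17, while its sister arm lay at 1.01. Both miR-144 arms are in that erythroid list. The libraries share the title-code split and depth, so these values describe this set. Over the 12 libraries of 21 days, miR-150-5p was nearest to miR-30c-1-3p, at 0.13, miR-133a-5p, at 0.20, and miR-423-3p, at 0.23, with a median of 0.72. MiR-133a-5p is the other arm of the cardiomyocyte miR-133a-3p, which also fell with MI at P7 in these libraries. MiR-223-3p was then nearest to miR-425-5p, miR-132-3p and miR-16-2-3p, at 0.14 to 0.17, and miR-142a-3p to miR-532-5p, miR-326-3p and miR-195a-5p, at 0.12 to 0.14.

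Among 17 further leukocyte-associated miRNAs, the edgeR fit covered 11 in the 3-day and 15 in the 21-day libraries. With MI at P1, 1 rose and 1 fell at 3 days: miR-146b-5p, known from innate immune signalling, by 2.48 ± 0.67, and miR-181a-5p, known from T cell development, by -2.87 ± 0.67 (edgeR adjusted p = 0.0235 and 0.023), where 1.35% of all tested rose and 17.0% fell. With MI at P7, 1 rose and 0 fell, again miR-146b-5p, by 2.78 ± 0.70 (0.0316), where 5.61% of all tested passed in either direction. In the limma-voom fit with title code as a random block, no tested miRNA passed with MI at either day. Without the sham P1 libraries titled 1103, none passed with MI at P1. At 21 days 0 of the 15 passed with MI at P1, against 0.502% of all tested, and 3 rose with MI at P7, against 13.2% of all tested: miR-146b-5p by 1.80 ± 0.37, miR-21a-5p by 1.49 ± 0.32 and miR-147-3p by 1.83 ± 0.52 (edgeR adjusted p = 0.0081, 0.00844 and 0.0246). For these 3 the MI effect at P7 also differed from that at P1, by 2.24, 1.78 and 2.87 (0.0178, 0.0228 and 0.0376), where 9.87% of all tested passed. With lane as a term, no tested miRNA passed in this difference. The passenger arm miR-223-5p did not pass with MI at either day of operation in either follow-up. The other arm of miR-150, miR-150-3p, was tested at 21 days only. It was at -0.67 ± 0.33 with MI at P7 and -0.59 ± 0.34 with MI at P1 (edgeR adjusted p = 0.16 and 0.726). Its effects thus differed by only -0.08 (edgeR adjusted p = 0.934), beside -1.35 for miR-150-5p. The list's median log2 fold change was 0.52 and -0.26 with MI at P1 and P7 at 3 days, and -0.08 and 0.07 at 21 days, beside 0.03, -0.01, -0.01 and 0.03 for all tested.

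Other blood and tissue markers were read beside the members. Of 4 erythroid miRNAs, miR-486a-5p fell with MI at P1 at 3 days by 2.47 (edgeR adjusted p = 0.023), and 0 passed in the other MI comparisons. The others were not lower with MI at P1 at 3 days, with miR-451a at 0.96, miR-144-5p at 0.47 and miR-144-3p at 0.07, and did not pass. Of 5 cardiomyocyte miRNAs, miR-133a-3p fell with MI at P1 at 3 days by 1.48 (edgeR adjusted p = 0.0283). The others did not pass, with miR-208b-3p at 0.67, miR-1a-3p at 0.23, miR-499-5p at 0.11 and miR-208a-3p at -0.09. The list summed to 88820 to 157867 CPM in MI P1 and 157079 to 254128 CPM in sham P1, while its median log2 fold change was 0.11. In this comparison 17.0% of all tested miRNAs fell. No tested miRNA passed in it without the sham libraries titled 1103, or in limma-voom with title code as a block. With MI at P7 at 3 days, 0 of the erythroid, endothelial, cardiomyocyte, and smooth muscle and fibroblast miRNAs passed. Of the 4 epithelial miRNAs 3 were tested at 3 days, and 1 fell with MI at P1. At 21 days 4 were tested and 2 rose with MI at P7, where 13.2% of all tested rose. The list then summed to 26.6 to 45.2 CPM in MI P7 and 28.6 to 36.3 CPM in sham P7. Of the 2 neuronal miRNAs 1 was tested, miR-9-5p, with 0 calls for MI against sham. At 21 days it passed when the effects at P7 and P1 were compared, with -1.65 (edgeR adjusted p = 0.0359). In that difference 9.87% of all tested passed, and none with lane as a term. The liver miRNA miR-122-5p ranged from 1.15 to 1641 CPM over the 3-day libraries and reached 0.216 CPM at most at 21 days, and its part in the members' values was not tested.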

How the data were processed

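The authors deposited whole-number counts per pair of hairpin and mature miRNA for each library. Bowtie2 2.2.2, edgeR and the build GRCm38 appear in the submitters' processing notes. How reads were trimmed and counted, and whether molecular identifiers were used, is not given in the sources used here. Per the labels' protocols, 3-day libraries were made with a QIAseq kit and 21-day libraries with TruSeq Small RNA.

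The highest count over hairpins was kept per mature name. Within a follow-up, edgeR 4.0.16 (R 4.3.3) was fitted to 4 groups with TMM, filterByExpr and the robust quasi-likelihood test, with Benjamini-Hochberg adjustment over all tested miRNAs. Log2 ratios within libraries (0.5 added to each count) were tested by exact two-sided permutation over samples. For the difference of the MI effects, MI and sham labels were permuted within each operation day, which tests for no MI effect at either day. Alternatives used DESeq2 1.42.0, limma 3.58.1, other scalings and filters, and left-out libraries. On simulated data the edgeR fit for MI at P7 recovered 67.6% of 4-fold changes at 3 days (446 miRNAs) and 94.4% at 21 days (598 miRNAs). Of 2-fold changes it recovered 16.9% and 66.7%. The simulated libraries were independent, without the title-code split, so these shares need not hold for the real libraries.

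All 7 members are named in each comparison of MI against sham, and not all of them in every other comparison. Also named are the 3 most similar profiles of miR-223-3p, miR-150-5p and miR-142a-3p (mean of at least 10 CPM). From each marker list, mainly up to 3 members by p are named. Members and lists were chosen with earlier results of these data known. No replicates looked like copies (lowest chi-square per degree of freedom 40.6).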

Additional observations from a re-analysis of the deposited data

Results flagged for a closer look

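Of 40 groups of 4 libraries examined at 3 days, 4 held a library far from the others, where chance gives about 1 in 20. MiR-142a-3p stood at 686 CPM in MI P1 replicate 2, above 117 to 213 CPM in the other 3. MiR-155-5p stood at 178 CPM in MI P7 replicate 3, above 59.9 to 78.5 CPM. The log2 ratio of miR-223-3p to miR-150-5p was -2.07 in MI P7 replicate 2, and that of the miR-142a arms was 1.22 in sham P1 replicate 4, from 17 and 7 counts.

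At 21 days the effect of MI had opposite directions in P1 and P7 hearts for 2 measures, without overlap in either. MiR-155-5p differed by -0.69 between the effects on the log2 scale (edgeR adjusted p = 0.146), and its effect at P1 turned from 0.13 to -0.066 with total count scaling and -0.036 with lane as a term, so its opposite directions depend on these settings. The log2 ratio of miR-223-3p to miR-150-5p differed by 1.90 (exact permutation p = 0.005, adjusted p = 0.06), from 3 libraries a group. That p is the smallest this test can give, and it tests for no MI effect at either day, not for equal effects.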

How the results depend on the processing

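The number of miRNAs called at 3 days depended on the scaling, the filter and the tool as well as on which libraries entered the fit. With MI at P1, 82 became 32 with total count scaling, 15 with no filter, 11 with limma-voom, 0 with 2 groups in the fit (120 unadjusted), 0 without the libraries titled 1103 (50 unadjusted), 348 without those titled 1078, and 0 in a limma-voom fit that blocked on title code (49 unadjusted). With MI at P7, 25 became 16 with DESeq2 size factors, 58 with total counts, 8 with no filter, 52 with DESeq2, 65 with 2 groups, 93 without code 1103, 88 without code 1078 and 0 with the code as a block (12 unadjusted). The difference of effects had 0 calls, 6 with DESeq2, 1 without code 1103 and 301 without code 1078. The sham comparison had 98, and 45 with a 10 CPM filter, 0 with 2 groups (48 unadjusted), 352 without code 1103 and 0 with the block (24 unadjusted).

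At 21 days, MI at P1 had 3 calls, 12 with no filter and 5 with 2 groups. MI at P7 had 132, 81 with a 10 CPM filter, 29 with 2 groups and 85 with a replicate block. The difference had 59, 137 with total counts, 96 with no filter, 38 at 10 CPM, 91 with DESeq2, 0 with lane as a term (121 unadjusted) and 33 with the replicate block. The sham comparison had 0, 2 with total counts, 29 with no filter, 14 with DESeq2 and 22 with 2 groups. Leaving out 1 library gave 0 to 164, 13 to 29, 0 and 17 to 185 calls at 3 days and 2 to 4, 60 to 190, 16 to 117 and 0 to 6 at 21 days, in the order MI P1, MI P7, difference and sham. The lowest for MI P1 at 3 days (0) came when sham P1 replicate 4 was left out, and likewise for replicates 1, 2 and 4 of MI P1.

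The replicate block used the number that ends each title at 21 days. Over 15 pairs of same-numbered libraries, deviations from group means correlated at -0.309 to 0.328. Their mean was 0.0089, against -0.0033 for libraries with different numbers. With groups of 3 this cannot show whether same-numbered libraries share more than the number. With the block, miR-142a-3p with MI at P7 had an edgeR adjusted p of 0.0796 and miR-150-5p 0.0215. No paired analysis was possible at 3 days because the numbers given there are only names, and a title-code block at 21 days could not be fitted because each group has 1 code.

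Total count scaling moved the median log2 fold change of all tested miRNAs by 0.30, 0.48, 0.18 and -0.29 at 3 days and by -0.19, 0.35, 0.53 and -0.23 at 21 days, in the same order, and DESeq2 size factors by 0.12, -0.14, -0.31 and 0.16 at 3 days. Of the members' 570 other values, 464 kept direction and side of the threshold.

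Directions that turned, on the log2 scale, were these; the cause was not tested. Without code 1078: miR-342-3p with MI at P1 -0.11, the difference for miR-142a-5p -4.50 and miR-342-5p 0.39, and the sham comparison for miR-142a-5p 3.47 and miR-223-3p 1.29. Without code 1103: miR-342-5p with MI at P1 0.41, and the difference for miR-142a-3p 0.13 and miR-223-3p 0.85. Total counts: miR-155-5p 0.19 and miR-342-3p 0.22 with MI at P7 and miR-342-3p -0.19 in the sham comparison at 3 days, and miR-142a-5p -0.11, miR-150-5p -0.11 and miR-155-5p -0.066 with MI at P1 at 21 days. No filter: miR-342-5p 0.10 with MI at P1, miR-142a-5p -0.12 in the difference and miR-342-3p -0.16 in the sham comparison, at 3 days. The 3-day difference for miR-142a-5p was also -0.18 with DESeq2 size factors and with DESeq2, -0.16 at 10 CPM, -1.23 with limma-voom and -1.21 with the code block, and its sham comparison 0.28 and 0.39 in the last 2. Lane as a term at 21 days: miR-142a-3p 0.10, miR-150-5p -0.13 and miR-155-5p -0.036 with MI at P1, miR-142a-5p -0.089 in the difference, and 0.11 for miR-142a-5p and 0.049 for miR-223-3p in the sham comparison. The replicate block gave miR-142a-5p -0.046 with MI at P1. The 21-day sham comparison gave miR-142a-5p 0.0046 with both DESeq2 settings and 0.0013 with limma-voom, and miR-223-3p 0.0102 and 0.0105 with the DESeq2 settings. Ratios: miR-223-3p to miR-150-5p 0.37 in the difference without code 1103 and 0.70 in the sham comparison without code 1078; the miR-142a arms 0.84 with MI at P1 and -0.79 in the difference without code 1103; the miR-342 arms -0.083 with MI at P1 without code 1103 and -0.53 in the difference without code 1078, all at 3 days.

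Leaving out 1 library turned uncalled values only. At 3 days these ranged from -0.066 to 0.48 for miR-342-3p with MI at P1, and in the difference from -0.52 to 0.61 for miR-142a-5p, -0.85 to 0.35 for miR-223-3p and -0.64 to 0.061 for miR-342-5p, and from -0.063 to 0.35 for miR-342-3p in the sham comparison. The miR-142a arm ratio ranged from -0.33 to 0.67 with MI at P1, -0.023 to 0.16 at P7 and -0.63 to 0.38 in the difference, and the miR-342 arm ratio from -0.23 to 0.29 in the difference. At 21 days miR-142a-3p ranged from -0.13 to 0.12 and miR-142a-5p from -0.056 to 0.20 with MI at P1, miR-142a-5p from -0.025 to 0.41 and miR-223-3p from -0.079 to 0.25 at P7, miR-142a-5p from -0.10 to 0.34 in the difference, and miR-142a-3p from -0.19 to 0.046, miR-142a-5p from -0.10 to 0.11 and miR-223-3p from -0.037 to 0.069 in the sham comparison. Depth limits the lowest values: miR-142a-3p in sham P1 replicate 3 of 3 days rests on 3 counts.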

Other observations

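MiR-342-5p was listed at 0 in 4 of the 12 libraries of 21 days (sham P1 replicates 1 and 3, MI P1 replicate 3 and MI P7 replicate 3), while the lowest count in the other 8 was 28. It was the 1 miRNA of 448 with a median of at least 28 counts at 21 days that had a 0 in any library, an item chosen after its values were seen. In the same libraries the other arm, miR-342-3p, had at least 913 counts.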
